A study of Sinotaia aeruginosa with 24 samples.

Results

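Transcripts for the enzymes that make and break down neurotransmitters, and for the transporters that take them up again, were followed in the freshwater snail Sinotaia aeruginosa (Bellamya aeruginosa in the series title) after feeding with cadmium, polystyrene microplastic or both. Members were the gene clusters whose best Swiss-Prot description named a cholinesterase, choline O-acetyltransferase, tyrosine 3-monooxygenase, tryptophan 5-hydroxylase, an L-amino-acid or histidine decarboxylase, dopamine beta-hydroxylase or a DBH-like protein, an amine oxidase, glutamate decarboxylase, 4-aminobutyrate aminotransferase, or a GABA, dopamine or serotonin transporter. These were 59 of 233875 clusters, of which 19670 carried a Swiss-Prot name. By role there were 10 cholinesterases, 1 choline O-acetyltransferase, 17 clusters of amine and histamine synthesis, 17 amine oxidases (10 copper-containing and 7 flavin-containing), 6 clusters of GABA synthesis and breakdown and 8 reuptake transporters.

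A neurotransmitter is made in the nerve ending by a small set of enzymes, acts on the neighbouring cell and is then removed, either by an enzyme outside the cell or by a transporter that carries it back. Acetylcholine is made by choline O-acetyltransferase and split by acetylcholinesterase. Dopamine and serotonin are made by hydroxylation of tyrosine or tryptophan followed by decarboxylation, and are taken up again and oxidised by monoamine oxidase, while GABA is made from glutamate and broken down by its aminotransferase. Cholinesterases and amine oxidases also form larger families with members outside the nervous system, where they act on esters and on amines from food or from the cell's own metabolism.

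Algae carrying the pollutants were fed daily, and RNA was taken on day 42 from tissues labelled brain and liver. Snails have a digestive gland in place of a liver, so the label is taken here as that gland. In each tissue there were 3 samples of snails given cadmium alone, 3 given polystyrene alone, 3 given both and 3 given neither (controls), each pollutant at a level that the labels call medium without a concentration. Whether each sample is a different animal is not stated in the labels. The p-values therefore describe only how far these samples lie apart, which may be a technical spread. The design text also names low and high levels, which are not analysed here. Samples held about 13712300 to 17146000 expected counts in all.

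The tissue labels were checked against marker lists. The neuropeptide transcript FMRFamide averaged 435 CPM (counts scaled to the library total) in control brains and 0.186 CPM in control livers, and the prohormone-cutting enzyme Neuroendocrine convertase 2 averaged 155 CPM in control brains and 4.56 CPM in control livers. Of the 16 nerve marker names, 13 were higher in control brain and 3 lower, such as Synaptosomal-associated protein 25 at 42.3 CPM in control brains and 44.4 CPM in control livers. The whole list of 46 nerve clusters summed to 1076 to 1629 CPM in control brains and 396 to 452 CPM in control livers. The digestive gland list (96 clusters, such as Endoglucanase E-4 and Cathepsin L) summed to 1833 to 4726 CPM in control brains and 37693 to 45740 CPM in control livers. The brain samples also held muscle transcripts, with a sum of 6900 to 15469 CPM in control brains and 507 to 574 CPM in control livers. Fewer cells of a type and less RNA per cell cannot be told apart in such whole-tissue samples.

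Each name is the best protein match of a cluster and gives a family, not a proven orthologue. Of the 59 matches, 32 had an E-value under 1e-50 and 10 an E-value of 1e-10 or more, and 12 clusters were shorter than 1000 bases. Clusters of the same name may be copies or pieces of 1 gene that share reads. No member sequence was at hand, so none is shown. A filter on low counts passed 36 members in brain, 35 in liver and 47 when all samples were fitted together; the other 12, with at most 100 counts each over all samples, were not tested. Fold changes are log2 values with their standard error, and a cluster was called where edgeR's adjusted p, taken over all clusters tested, was under 0.05.

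In unexposed snails choline O-acetyltransferase, the hydroxylases of tyrosine and tryptophan, histidine decarboxylase and the dopamine and serotonin transporters were higher in brain. All 4 GABA aminotransferases and 8 of 13 tested amine oxidases were lower in brain, where 4 amine oxidases were higher. Amine and histamine synthesis (5 higher and 6 lower of 13) and cholinesterases (3 higher and 4 lower of 9) were divided. Of the 47 members tested, 39 were called, against 49.7% of all 78809 clusters tested. Of these 16 were higher in control brain (23.5% of all clusters) and 23 were lower (26.2%). The filter on low counts was reached by 20 of the 47 only in samples of 1 tissue, which favoured a difference. Of these 9 were called higher and 9 lower. The 9 higher were choline O-acetyltransferase, the hydroxylases of tyrosine and tryptophan, histidine decarboxylase, dopamine beta-hydroxylase and Cluster-2499.60943, Cluster-2499.35054, Cluster-2499.27866 and Cluster-2499.37114. Among the 9 lower were Cluster-2499.88532, Cluster-2499.88985, Cluster-2499.88389, Cluster-2499.86729, Cluster-2499.82977 and Cluster-2499.53469. Of the 27 that reached the filter in both tissues, 7 were higher and 14 lower. The median log2 fold change was -0.83 over the members (also with the 6 members that had no count in one tissue set at their bounds), against 0.0037 over all clusters. Over all exposures, 12 of the 59 had more than 90% of their level in brain, 15 had less than 10% there and 32 lay between. Summed by role, amine and histamine synthesis came to 261 ± 46.2 CPM in control brains and 165 ± 8.33 CPM in control livers (SD, n = 3 each, as below). The direction of that sum rested on 1 cluster, the DBH-like 2 homolog Cluster-2499.100617, without which it came to 46.1 ± 2.20 CPM in brain and 163 ± 9.13 CPM in liver. Cholinesterases summed to 40.0 ± 8.37 CPM in brain and 295 ± 36.0 CPM in liver, and amine oxidases to 106 ± 22.6 CPM in brain and 548 ± 36.3 CPM in liver.

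**Figure D1:**
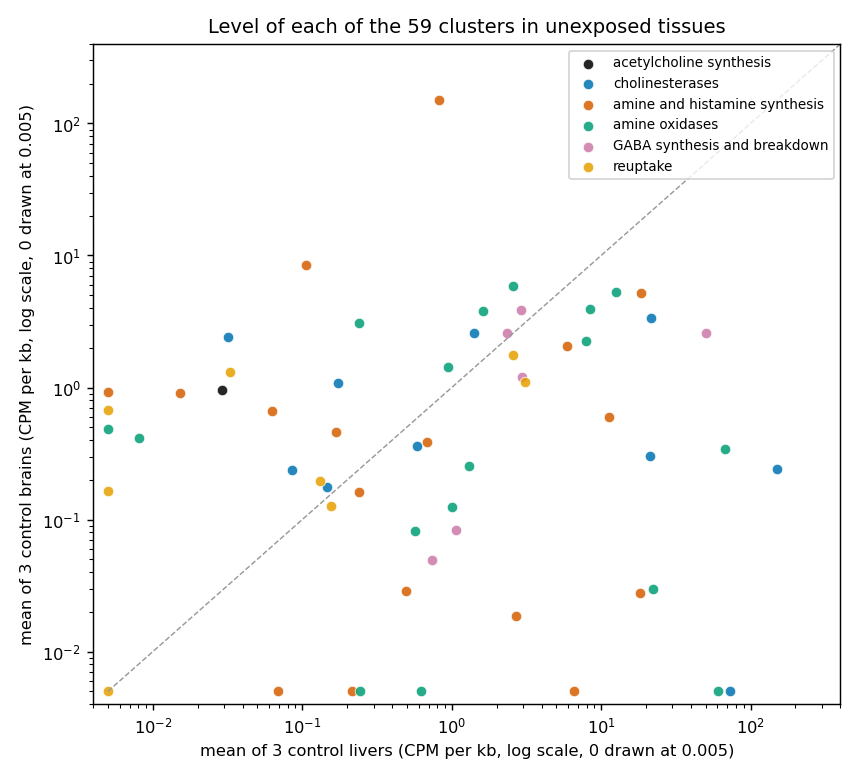
Each point is 1 of the 59 clusters, with its mean level in the 3 control livers on the x axis and in the 3 control brains on the y axis, in CPM per kilobase on log scales, coloured by role. Points above the dashed line of equality were higher in brain, and members of every role except acetylcholine synthesis, with its 1 cluster, lie on both sides.

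Choline O-acetyltransferase and the enzymes of the first step to serotonin and dopamine were on the brain side. Each reached the filter on low counts in brain samples only, so a difference was favoured by its being tested. Choline O-acetyltransferase (Cluster-2499.34988) stood at 4.47, 5.78 and 2.03 CPM in control brains and 0, 0.0842 and 0.284 CPM in control livers (log2 fold change 5.02 ± 0.67, edgeR adjusted p = 5.29e-06). No control liver reached the lowest control brain, and the 9 exposed livers had no count at all. Tryptophan 5-hydroxylase 1 (Cluster-2499.128200), the first step to serotonin, stood at 7.90, 27.5 and 13.0 CPM in control brains and 0.0867, 0.421 and 0.0947 CPM in control livers (log2 fold change 6.25 ± 0.73, edgeR adjusted p = 3.63e-07).

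Tyrosine 3-monooxygenase (Cluster-2499.37147), the first step to dopamine, had 2.13, 1.96 and 1.77 CPM in control brains and no count in control livers, which makes it at least 22.1-fold higher in brain with a floor of 3 counts over the group (edgeR adjusted p = 6.73e-06; such floors, and the intervals below, cover counting error only). Dopamine beta-hydroxylase (Cluster-2499.27900), which turns dopamine into noradrenaline in vertebrates, was matched at an E-value of 1.07e-180 and had 108 counts in control brains and 1 in control livers, a ratio of 64.0 (95% counting interval 11.2 to 2551, edgeR adjusted p = 1.86e-05). Histidine decarboxylase (Cluster-2499.130315), which makes histamine, averaged 2.24 ± 1.43 CPM in control brains and 0.210 ± 0.193 CPM in control livers (log2 fold change 3.39 ± 0.70, edgeR adjusted p = 3.57e-04). In each of these enzymes every control brain stood above every control liver. Each also reached the filter on low counts in brain samples only, which favoured a difference.

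The reuptake transporters of dopamine and serotonin, which carry the amines back into the nerve ending, were on the same side. Both clusters given for them had likewise reached the filter in brain samples only. The dopamine transporter (Cluster-2499.60943) had 8.01, 3.65 and 3.24 CPM in control brains and 0.0867, 0 and 0.284 CPM in control livers (log2 fold change 5.30 ± 0.67, edgeR adjusted p = 4.76e-07). The longest serotonin transporter cluster (Cluster-2499.35054) had 1.87, 3.38 and 1.57 CPM in control brains and no count in any of the 12 livers, at least 25.5-fold higher in the control brains (edgeR adjusted p = 1.08e-04). The GABA transporters were shared between tissues. GABA transporter 1 (Cluster-2499.95428) was lower in brain, with 6.40, 4.85 and 4.36 CPM in control brains and 16.4, 14.4 and 13.4 CPM in control livers (log2 fold change -1.50 ± 0.23, edgeR adjusted p = 7.70e-06). GABA transporter ine (Cluster-2499.83594) averaged 6.57 ± 2.34 CPM in control brains and 9.72 ± 0.638 CPM in control livers, groups that overlapped (edgeR adjusted p = 0.106). The second GABA transporter 1 cluster, Cluster-2499.27866, was called higher in brain on 22 counts in brain and none in liver, at least 4.35-fold, with 1 control brain also at 0. It too had reached the filter in brain samples only.

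Cholinesterases split by tissue. On the brain side, the acetylcholinesterase Cluster-2499.37114 had 13.9, 4.91 and 7.45 CPM in control brains and 0, 0.253 and 0.0947 CPM in control livers (log2 fold change 6.13 ± 0.69, edgeR adjusted p = 3.29e-07). Its match, to the electric ray enzyme, had an E-value of 3.30e-147. It reached the filter on low counts in brain samples only, which favoured a difference. Cluster-2499.84319, an acetylcholinesterase matched to the mosquito enzyme with an E-value of 4.11e-184, differed by less, with 14.9, 13.2 and 17.5 CPM in control brains and 7.98, 9.10 and 7.86 CPM in control livers (log2 fold change 0.87 ± 0.21, edgeR adjusted p = 0.00114). The cholinesterase Cluster-2499.124806 averaged 6.2 ± 0.676 CPM in control brains and 0.993 ± 0.426 CPM in control livers (edgeR adjusted p = 5.76e-06). In these 3 the brain and liver samples did not overlap.

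On the liver side, the cholinesterase Cluster-2499.88532 had 0.260, 0.164 and 0.304 CPM in control brains and 157, 119 and 175 CPM in control livers (log2 fold change -9.22 ± 0.32, edgeR adjusted p = 1.10e-16). Per kilobase it was the most abundant member in control liver, at 150 ± 28.5 CPM per kb. Its match had an E-value of 1.36e-17. The acetylcholinesterases Cluster-2499.88389 (0 counts in control brains and 29.0 ± 7.99 CPM in control livers, at least 548-fold lower in brain) and Cluster-2499.85211 (0.865 ± 0.485 CPM in brain and 60.0 ± 3.30 CPM in liver) were also lower in brain, as was Cluster-2499.81644, at 8.16, 4.47 and 8.56 CPM in control brains and 43.5, 42.7 and 49.3 CPM in control livers (log2 fold change -2.67 ± 0.20, edgeR adjusted p = 6.67e-11). The cluster of 396 bases, Cluster-2499.88389, rested on an E-value of 7.48e-09. Both Cluster-2499.88532 and Cluster-2499.88389 reached the filter on low counts in liver samples only, which favoured a difference. Of the cholinesterases that were not called between the control tissues, Cluster-2499.35583 (1.09, 0.709 and 1.01 CPM in control brains and 0.260, 0.758 and 0 CPM in control livers, edgeR adjusted p = 0.144) carried the KEGG description neuroligin, a synaptic adhesion protein of the same fold that lacks the enzyme activity.

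The flavin-containing amine oxidases, the family of mitochondrial monoamine oxidases, were lower in brain in 5 of the 6 clusters tested. Amine oxidase B (Cluster-2499.88927) had 0.260, 1.14 and 1.11 CPM in control brains and 166, 155 and 177 CPM in control livers (log2 fold change -7.61 ± 0.34, edgeR adjusted p = 7.48e-15). A second cluster of that name (Cluster-2499.86729, E-value 4.47e-06) had 3 counts in control brains and 1292 in control livers, 727-fold lower in brain with a 95% counting interval of 248 to 3528. This cluster and Cluster-2499.81472, also lower in brain, reached the filter on low counts in liver samples only, which favoured a difference. Amine oxidase A (Cluster-2499.93582, 12.4 ± 0.228 CPM in brain and 26.6 ± 2.66 CPM in liver, log2 fold change -1.09 ± 0.14) and the probable monoamine oxidase A (Cluster-2499.95699, 12.9 ± 0.420 CPM in brain and 45.2 ± 3.27 CPM in liver, log2 fold change -1.81 ± 0.16) were lower in brain by less, with no overlap of the groups (edgeR adjusted p = 8.86e-07 and 1.29e-09).

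The copper-containing amine oxidases, which strip the amino group from diamines and histamine, differed among themselves. Cluster-2499.88985 had no count in control brains and 218, 175 and 191 CPM in control livers, at least 3718-fold lower in brain (edgeR adjusted p = 5.13e-16). It reached the filter on low counts in liver samples only, which favoured a difference. Cluster-2499.86161 had 21.3, 20.8 and 22.9 CPM in control brains and 60.9, 41.4 and 51.9 CPM in control livers (log2 fold change -1.24 ± 0.18, edgeR adjusted p = 4.34e-06). Against these, Cluster-2499.118224 was higher in brain, with 19.1, 8.67 and 16 CPM in control brains and 1.39, 1.35 and 0.663 CPM in control livers (log2 fold change 3.67 ± 0.66, edgeR adjusted p = 1.07e-04), as were Cluster-2499.35946, the amiloride-sensitive oxidase Cluster-2499.104962 and Cluster-2499.97210, the last with overlapping groups.

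The DBH-like monooxygenases, copper enzymes related to dopamine beta-hydroxylase, lay on both sides. The DBH-like 2 homolog Cluster-2499.100617 was the most abundant member in control brain per kilobase, at 151 ± 33.9 CPM per kb, where the next, tryptophan 5-hydroxylase 1, stood at 8.52 ± 5.37 CPM per kb. It had 238, 159 and 247 CPM in control brains and 2.08, 0.590 and 0.852 CPM in control livers (log2 fold change 7.51 ± 0.50, edgeR adjusted p = 6.40e-11), on a match with an E-value of 4.68e-06. DBH-like 1 Cluster-2499.82528 ran the other way, with 0.0520, 0.164 and 0.0507 CPM in control brains and 65.2, 49.8 and 59.8 CPM in control livers (log2 fold change -9.25 ± 0.44, edgeR adjusted p = 1.94e-14). The DBH-like clusters Cluster-2499.82977, Cluster-2499.53469 and Cluster-2499.83550 were lower in brain too. Of these, Cluster-2499.82977 and Cluster-2499.53469 reached the filter on low counts in liver samples only, which favoured a difference.

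Of 4 tested clusters of the decarboxylase shared by dopamine and serotonin synthesis, 2 were lower in brain and 2 were not called. Aromatic-L-amino-acid decarboxylase Cluster-2499.84266 had 20.3, 10.5 and 18.4 CPM in control brains and 42.5, 63.4 and 69.4 CPM in control livers (log2 fold change -1.83 ± 0.28, edgeR adjusted p = 1.17e-05). Cluster-2499.91991 averaged 1.08 ± 0.120 CPM in brain and 20.3 ± 5.19 CPM in liver (log2 fold change -4.22 ± 0.45, edgeR adjusted p = 5.34e-08). For GABA, the making enzymes did not differ beyond their spread and the breakdown enzyme did. Glutamate decarboxylase 1 (Cluster-2499.60605) averaged 13.4 ± 6.69 CPM in control brains and 12.2 ± 1.85 CPM in control livers, and glutamate decarboxylase 2 (Cluster-2499.79360) 8.76 ± 2.33 CPM in brain and 6.55 ± 2.49 CPM in liver, with overlapping groups (edgeR adjusted p = 0.723 and 0.239). All 4 aminotransferase clusters were lower in brain, led by Cluster-2499.90946 at 16.2, 6.87 and 11.3 CPM in control brains and 213, 229 and 236 CPM in control livers (log2 fold change -4.30 ± 0.28, edgeR adjusted p = 5.83e-12).

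Among 64 related clusters outside the members (cofactor synthesis, vesicle loading, uptake of choline and amino acids, glutamate supply and related enzymes), 46 of 54 tested differed between the control tissues, 27 higher in brain and 19 lower (49.7% of all clusters were called, 23.5% higher and 26.2% lower). The filter on low counts was reached by 37 of the 54 in both tissues, and of these 15 were higher and 14 lower. All 7 vesicle-loading transporters were higher in brain, of which 4 reached the filter in brain samples only and so were favoured to differ. Among the 7 were the vesicular acetylcholine transporter (Cluster-2499.134980, 43 counts in control brains and 0 in control livers) and the synaptic vesicular amine transporter (Cluster-2499.33015, 97 and 2 counts, a ratio of 28.7 with a 95% counting interval of 7.75 to 241). High-affinity choline transporter 1 (Cluster-2499.31538), which supplies choline for acetylcholine, averaged 8.81 ± 2.79 CPM in control brains and 0.176 ± 0.0837 CPM in control livers (edgeR adjusted p = 9.53e-08). Tyramine beta-hydroxylase (Cluster-2499.89100), which makes octopamine in insects, was lower in brain, with 0, 0 and 0.355 CPM in control brains and 56.0, 121 and 26.6 CPM in control livers (log2 fold change -9.03 ± 0.85, edgeR adjusted p = 3.05e-08).

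In exposed livers the DBH-like monooxygenase Cluster-2499.82977 fell with every exposure, and glutamate decarboxylase 1 fell with both pollutants together. No member rose. Each exposed group was compared with the same 3 control livers, so the 3 comparisons are not independent. With cadmium, 2 of 35 tested members fell and 0 rose (3.46% of all clusters were called, 1.8% lower and 1.66% higher). With polystyrene, 2 of 35 fell and 0 rose (3.14% of all clusters, 1.56% lower and 1.58% higher). With both, 3 of 35 fell and 0 rose (6.24%, of which 3.39% lower and 2.86% higher). Each count includes the DBH-like homolog Cluster-2499.53469, which passed the filter on low counts through the control livers alone, where it is high, so that a fall was built into its being tested. Without it 1, 1 and 2 of 34 were called, all lower, or 2.94%, 2.94% and 5.88%. That is near the share of all clusters called in either direction. It rests on 1 or 2 members, beside 1.8%, 1.56% and 3.39% of all clusters called lower. At an unadjusted p under 0.05, edgeR counted 9, 9 and 8 members in that order. The matching share of all clusters at an unadjusted p, or by the DESeq2 Wald test, is not given here or below. Such counts are therefore a description only. The median log2 fold changes of the members were 0.05, -0.07 and 0.04, against -0.0019, 0.0 and 0.0030 over all clusters.

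DBH-like 1 Cluster-2499.82977 had 1.85, 1.5 and 1.69 CPM in the cadmium livers, 2.28, 2.29 and 1.84 CPM in the polystyrene livers, 1.81, 2.61 and 3.13 CPM in the combined-exposure livers and 7.81, 9.69 and 4.83 CPM in control livers. Every exposed liver lay below the lowest control. The log2 fold change was -2.15 ± 0.33 with cadmium (edgeR adjusted p = 0.00358), -1.80 ± 0.32 with polystyrene (adjusted p = 0.00833) and -1.59 ± 0.32 with both (adjusted p = 0.0113). Its match to the chicken protein had an E-value of 1.32e-35.

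The shorter DBH-like 1 homolog Cluster-2499.53469 (357 bases) had 0.0839, 0.0790 and 0.0889 CPM in the cadmium livers, 0.0816, 0.229 and 0.0707 CPM in the polystyrene livers, 0.0821, 0 and 0 CPM in the combined-exposure livers and 1.91, 3.96 and 1.23 CPM in control livers. These levels rest on 3, 5 and 1 counts in the exposed groups and 82 in the controls, and again no exposed liver reached a control. The values are given as a description, since the control livers alone brought the cluster into the test. The level was 28.8-fold lower with cadmium (95% counting interval 9.53 to 143, edgeR log2 fold change -4.67 ± 0.84, adjusted p = 0.00887). It was 19.1-fold lower with polystyrene (7.85 to 60.3, log2 fold change -4.13 ± 0.78, adjusted p = 0.0120). With both it was 84.8-fold lower (14.8 to 3388, log2 fold change -5.97 ± 0.96, adjusted p = 0.00361).

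Tyramine beta-hydroxylase (Cluster-2499.89100), outside the members but of the same enzyme family, had 1.51, 2.21 and 2.13 CPM in the cadmium livers, 2.12, 7.10 and 2.19 CPM in the polystyrene livers, 0.821, 0.811 and 0.423 CPM in the combined-exposure livers and 56.0, 121 and 26.6 CPM in control livers. All 9 exposed livers were below all 3 controls. Its log2 fold change was -5.12 ± 0.70, -4.17 ± 0.65 and -6.65 ± 0.79 in the same order (edgeR adjusted p = 0.00732, 0.0125 and 0.00324), with the polystyrene call lost without polystyrene replicate 1 or 3 (adjusted p up to 0.0618). The other DBH-like clusters tested in liver were not called. Cluster-2499.83550 averaged 16.9 ± 2.92 CPM with cadmium, 18.1 ± 1.90 CPM with polystyrene, 19.8 ± 3.80 CPM with both and 14.1 ± 2.84 CPM in controls, and the groups overlapped (edgeR adjusted p = 0.512, 0.369 and 0.158). Cluster-2499.82528 averaged 57.6 ± 5.58 CPM with cadmium, 58.9 ± 8.0 CPM with polystyrene, 73.6 ± 8.98 CPM with both and 58.3 ± 7.84 CPM in controls, with edgeR adjusted p = 0.978, 0.974 and 0.191.

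Control liver replicate 2 was the highest of all livers in the 3 falling monooxygenases. Without it 1 member fell with cadmium, 0 with polystyrene and 1 with both. The last was Cluster-2499.53469, which the control livers alone had brought into the test. Also without that control, the adjusted p of Cluster-2499.53469 was 0.0984 with cadmium and 0.130 with polystyrene, and that of Cluster-2499.82977 was 0.0516 with polystyrene and 0.0683 with both, while the fall of Cluster-2499.82977 with cadmium kept its call in all 12 omissions of a sample (log2 fold changes of -2.38 to -1.90). Without polystyrene replicate 3 the adjusted p of Cluster-2499.53469 with polystyrene was 0.0619. Control liver replicate 2 also held the highest sums of ciliary transcripts (1281 CPM, against 540 and 844 CPM in the other controls) and of sperm and testis transcripts (416 CPM, against 214 and 264 CPM). Sperm and testis sums ranged over 191 to 238 CPM with cadmium, 211 to 304 CPM with polystyrene, 183 to 206 CPM with both and 214 to 416 CPM in controls, the combined-exposure livers lying below all controls. Of 25 such clusters tested 0, 0 and 5 fell and 0 rose, and 4 of the 33 listed had no count in each exposed group, against 2 in controls. Ciliary sums ranged over 390 to 551 CPM with cadmium, 360 to 865 CPM with polystyrene, 325 to 368 CPM with both and 540 to 1281 CPM in controls. Of 64 ciliary clusters tested 2 fell with cadmium, 0 with polystyrene and 18 with both (2 rose), and 11, 11 and 12 of the 102 listed had no count in those groups, against 14 in controls. Blood cell and plasma transcripts (28 clusters) summed to 6983 to 10956 CPM with cadmium, 7328 to 7808 CPM with polystyrene, 5153 to 7383 CPM with both and 8294 to 11654 CPM in controls. The polystyrene and combined-exposure livers lay below all controls, of 25 clusters tested 1, 2 and 4 fell and 0 rose, and 2, 2 and 1 had no count, against 0 in controls. Muscle transcripts (18 clusters) summed to 676 to 914 CPM with cadmium, 673 to 765 CPM with polystyrene, 882 to 922 CPM with both and 507 to 574 CPM in controls, so that no exposed liver overlapped the controls. Of 8 muscle clusters tested 2, 2 and 6 rose and 0 fell, and 9, 2 and 9 of the 18 had no count, against 9 in controls. The part of these cells in the falls of glutamate decarboxylase 1 and of the monooxygenases was not tested.

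**Figure D2:**
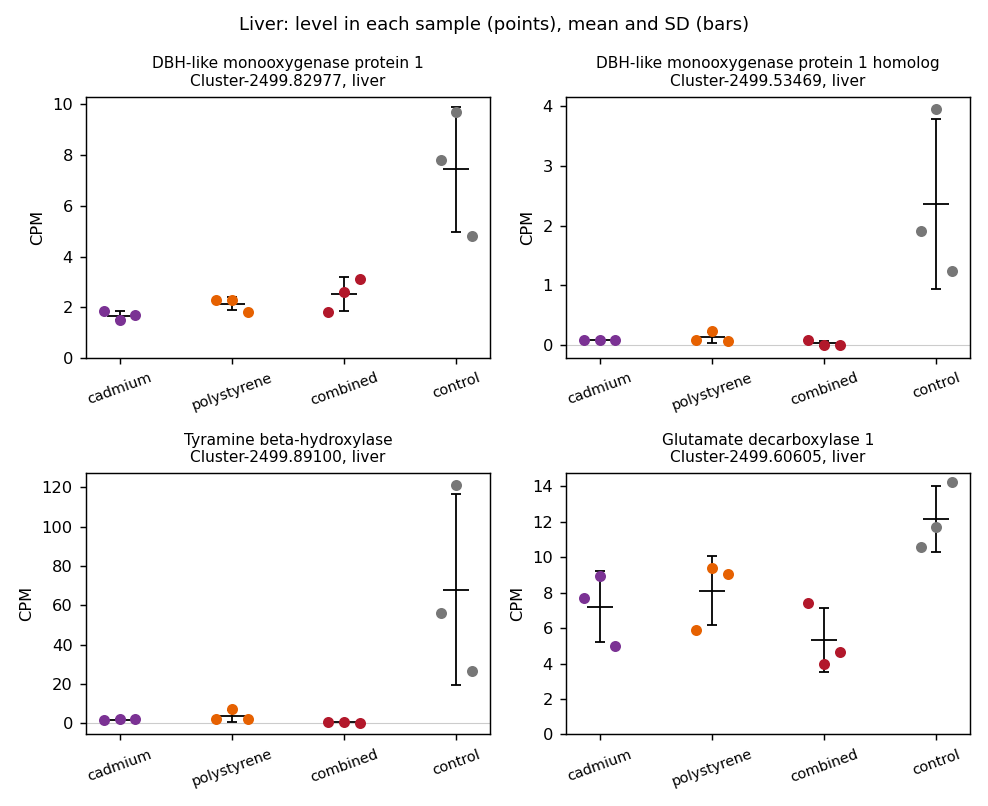
Level in CPM of 4 clusters in each liver sample (points), with the mean and SD of the 3 samples as bars, for cadmium, polystyrene, combined exposure and control. In the monooxygenase panels every exposed sample lies below every control sample.

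In GABA synthesis, glutamate decarboxylase 1 (Cluster-2499.60605) had 7.72, 8.92 and 4.98 CPM in the cadmium livers, 5.87, 9.39 and 9.05 CPM in the polystyrene livers, 7.38, 3.97 and 4.65 CPM in the combined-exposure livers and 10.6, 11.7 and 14.2 CPM in control livers. All exposed livers lay below the lowest control, and the fall was called with both pollutants (log2 fold change -1.21 ± 0.28, edgeR adjusted p = 0.0223) and not with cadmium (-0.75 ± 0.27, adjusted p = 0.158) or polystyrene (-0.58 ± 0.27, adjusted p = 0.295). The call was lost without control replicate 2 or 3 or combined replicate 2 or 3 (adjusted p 0.0649 to 0.0782). Glutamate decarboxylase 2 (Cluster-2499.79360) had 3.19, 3.79 and 2.58 CPM with cadmium, 5.30, 4.43 and 5.58 CPM with polystyrene, 5.25, 3.24 and 2.96 CPM with both and 3.90, 8.84 and 6.91 CPM in controls, and was not called (adjusted p = 0.0966, 0.626 and 0.152). The GABA aminotransferase Cluster-2499.90946 averaged 236 ± 29.8 CPM with cadmium, 201 ± 13.0 CPM with polystyrene, 254 ± 68.5 CPM with both and 226 ± 11.7 CPM in controls, with no call.

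No other liver member was called. The cholinesterase Cluster-2499.88532 had 175, 178 and 229.7 CPM with cadmium, 197, 188 and 184 CPM with polystyrene, 189, 192 and 215 CPM with both and 157, 119 and 175 CPM in controls. The polystyrene and combined-exposure livers lay above the highest control and the cadmium livers overlapped the controls, with no change past the threshold (log2 fold change 0.38 ± 0.13, 0.34 ± 0.13 and 0.38 ± 0.13, edgeR adjusted p = 0.147, 0.209 and 0.103). The cholinesterase Cluster-2499.124806 had 2.69, 3.44 and 3.39 CPM in the polystyrene livers and 1.47, 0.842 and 0.663 CPM in control livers (log2 fold change 1.66 ± 0.48, edgeR adjusted p = 0.0809). It passed with the DESeq2 Wald test (adjusted p = 0.0371) and in edgeR with only the 6 samples compared (adjusted p = 0.0365). The copper amine oxidase Cluster-2499.98541 had 8.73, 10.5 and 7.56 CPM with polystyrene, 4.10, 2.16 and 1.52 CPM with both and 1.56, 4.13 and 4.26 CPM in controls. Its combined-exposure livers did not overlap the polystyrene livers (log2 fold change -1.80 ± 0.52, edgeR adjusted p = 0.124, DESeq2 Wald adjusted p = 0.0177). Aromatic-L-amino-acid decarboxylase Cluster-2499.84266 had 27.1, 33.8 and 39.6 CPM with cadmium and 42.5, 63.4 and 69.4 CPM in controls, also without overlap (log2 fold change -0.80 ± 0.24, edgeR adjusted p = 0.0923, DESeq2 Wald adjusted p = 0.0256). The summed amine oxidases ranged over 585 to 673 CPM with cadmium, 524 to 608 CPM with polystyrene, 562 to 568 CPM with both and 508 to 579 CPM in controls.

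**Figure D3:**
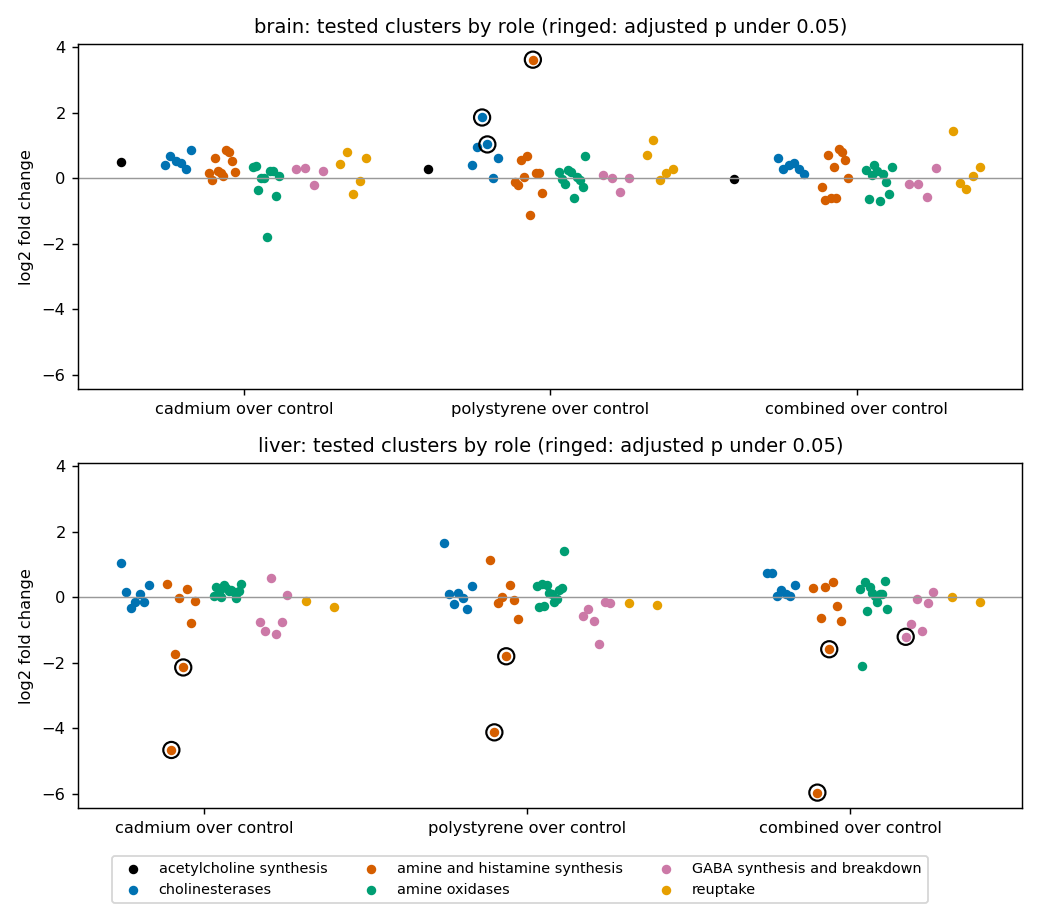
Log2 fold change of each tested member in exposed over control samples, in brain (upper panel, 36 members) and liver (lower panel, 35 members), coloured by role. Rings mark the members with an adjusted p under 0.05, which are the 3 higher in polystyrene brains and the 2, 2 and 3 lower in cadmium, polystyrene and combined-exposure livers.

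In polystyrene brains 2 acetylcholinesterases rose. No member was called in the cadmium or combined-exposure brains. With cadmium 0 of 36 tested members were called (4.34% of all clusters were), with 2 at an unadjusted p under 0.05 in edgeR and 0 by the DESeq2 Wald test. With polystyrene 3 of 36 rose and 0 fell (7.08% of all clusters were called, 4.66% higher and 2.42% lower). One of these, the DBH-like Cluster-2499.82528, passed the filter on low counts through the polystyrene brains alone, so that a rise was built into its being tested. Without it 2 of 35 were called, both higher, or 5.71%. That is near the share of all clusters called in either direction (7.08%) and the share called higher (4.66%). With both 0 of 36 were called (3.92% of all clusters), with 2 at an unadjusted p under 0.05 and 0 by DESeq2. The median log2 fold changes of the members were 0.26, 0.16 and 0.12 in that order, against -0.0077, -0.0035 and -0.0086 over all clusters. The 3 comparisons share their control brains.

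Acetylcholinesterase Cluster-2499.37114 had 17.1, 8.86 and 12.6 CPM in the cadmium brains, 23.6, 29.2 and 43.3 CPM in the polystyrene brains, 15.4, 6.28 and 13.5 CPM in the combined-exposure brains and 13.9, 4.91 and 7.45 CPM in control brains. The polystyrene brains stood above all 9 others, and the remaining groups overlapped. With polystyrene the log2 fold change was 1.86 ± 0.42 (edgeR adjusted p = 0.0197), a 3.63-fold rise, with 0.54 ± 0.41 for cadmium and 0.39 ± 0.41 for both (adjusted p = 0.532 and 0.695). Without control replicate 5 or 6 or polystyrene replicate 6 the adjusted p was 0.0754 to 0.0838, with log2 fold changes of 1.58 to 1.77.

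Acetylcholinesterase Cluster-2499.81644, mainly a liver transcript, had 10.6, 9.51 and 9.38 CPM in the cadmium brains, 15.0, 13.1 and 15.8 CPM in the polystyrene brains, 8.84, 9.42 and 11.8 CPM in the combined-exposure brains and 8.16, 4.47 and 8.56 CPM in control brains. Here too each polystyrene brain was above the other 9. With polystyrene the log2 fold change was 1.04 ± 0.23 (edgeR adjusted p = 0.0177), lost without polystyrene replicate 6 (adjusted p = 0.0675) and in a fit of only these 6 samples (adjusted p = 0.0607). The other 4 tested cholinesterases also had estimates above 0 with polystyrene, from 0.02 to 0.96, without a call. With cadmium all 6 estimates lay between 0.29 and 0.87 and with both between 0.12 and 0.61, none of them called. Summed over the 10 clusters, cholinesterases came to 51.7 to 55.9 CPM in cadmium brains, 69.2 to 80.4 CPM in polystyrene brains, 40.4 to 64.1 CPM in combined-exposure brains and 30.5 to 46.3 CPM in control brains.

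Choline O-acetyltransferase (Cluster-2499.34988), the enzyme on the making side, had 6.91, 3.70 and 6.86 CPM with cadmium, 4.96, 5.0 and 5.11 CPM with polystyrene, 5.75, 3.14 and 3.41 CPM with both and 4.47, 5.78 and 2.03 CPM in controls, overlapping throughout. With polystyrene its log2 fold change was 0.28 ± 0.37 (edgeR adjusted p = 0.721). The transporter that supplies its choline, Cluster-2499.31538, averaged 13.3 ± 5.78 CPM with cadmium, 12.2 ± 1.82 CPM with polystyrene, 9.77 ± 3.61 CPM with both and 8.81 ± 2.79 CPM in controls, and was not called.

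DBH-like 1 Cluster-2499.82528, high in liver and near 0 in brain, had 0.252, 0.117 and 0.135 CPM in the cadmium brains, 1.16, 1.51 and 0.843 CPM in the polystyrene brains, 0, 0.393 and 0.107 CPM in the combined-exposure brains and 0.0520, 0.164 and 0.0507 CPM in control brains. The polystyrene brains held 71 counts and the control brains 5, a ratio of 13.5 (95% counting interval 5.52 to 42.8), and each polystyrene brain was above the other 9. The values are given as a description, since the polystyrene brains alone brought the cluster into the test. The log2 fold change was 3.62 ± 0.92 (edgeR adjusted p = 0.0294). It was lost without control replicate 4 or 6 or any 1 polystyrene sample (adjusted p 0.0662 to 0.118).

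Markers of the digestive gland, where 2 of these 3 transcripts are abundant, summed to 2471 to 2801 CPM in polystyrene brains and 1833 to 4726 CPM in control brains. Of 86 such clusters tested in brain, 1 rose and 0 fell with polystyrene, and 18 of the 96 listed had no count in the polystyrene brains, against 19 in the controls. The cholinesterase Cluster-2499.88532, the most abundant member of control liver per kilobase, had 2 counts in polystyrene brains and 14 in control brains, and the copper amine oxidase Cluster-2499.88985 had 0, 0.0943 and 0.0992 CPM in polystyrene brains and none in control brains. Mitochondrially encoded transcripts (110 clusters) summed to 16911 to 18787 CPM in polystyrene brains and 22937 to 46609 CPM in control brains, without overlap. Of 77 tested, 4 rose and 13 fell, and 13 of the 110 had no count in the polystyrene brains, against 15 in the controls. Control brain replicate 5 held the highest of these sums and the lowest control level of both acetylcholinesterases. It lay further from the other control brains (chi-square per degree of freedom of 53.9 and 55.8) than they did from each other (19.6). Without it 2 members rose with polystyrene, Cluster-2499.81644 (log2 fold change 0.82, edgeR adjusted p = 0.0239) and Cluster-2499.82528 (4.36, adjusted p = 0.0357), while Cluster-2499.37114 was no longer called. The part of these transcripts in the rise was not tested. Nerve markers summed to 1110 to 1335 CPM in polystyrene brains and 1076 to 1629 CPM in control brains, with 1 of 41 higher and 1 lower, and none of the 46 was without a count in either group.

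**Figure D4:**
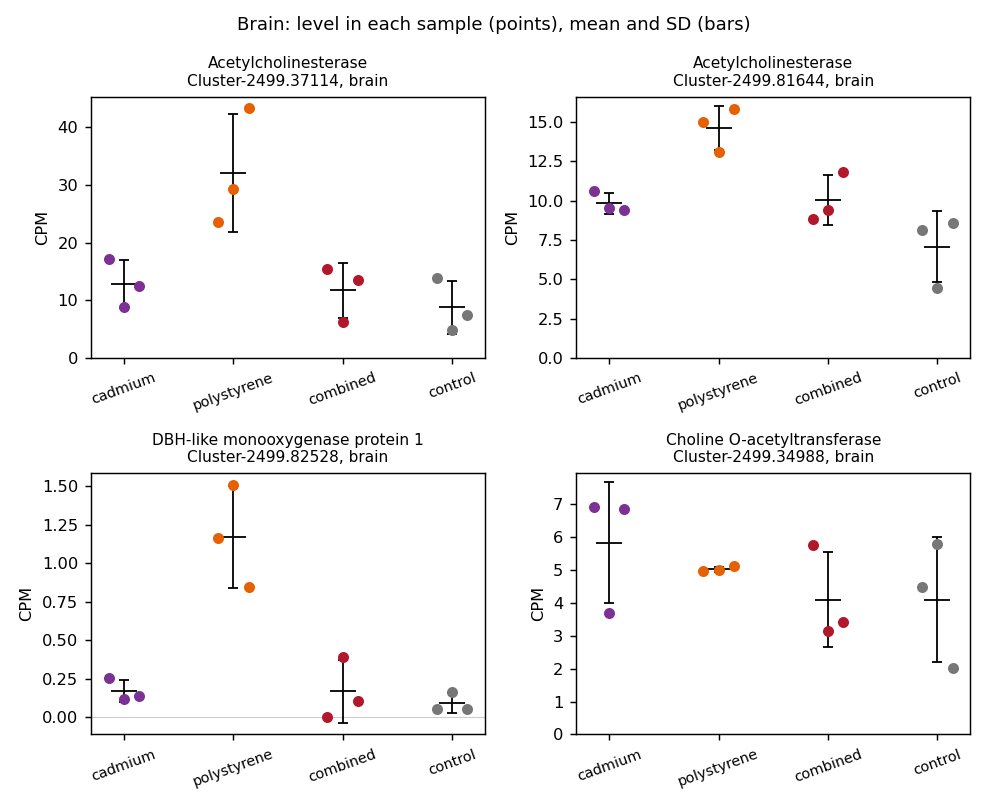
Level in CPM of 4 clusters in each brain sample (points), with the mean and SD of the 3 samples as bars, for cadmium, polystyrene, combined exposure and control. Both acetylcholinesterases are highest in the 3 polystyrene brains, whereas the choline O-acetyltransferase groups overlap. DBH-like 1 is also highest there, but the polystyrene brains alone brought it into the test, so that its rise is a description only.

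The amine-making enzymes and amine transporters of neurons were not called in any exposed brain by edgeR with its filter on low counts. Tryptophan 5-hydroxylase 1 (Cluster-2499.128200) ranged over 12.2 to 19.6 CPM with cadmium, 12.1 to 17.2 CPM with polystyrene, 4.21 to 17.6 CPM with both and 7.90 to 27.5 CPM in controls. Tyrosine 3-monooxygenase (Cluster-2499.37147) had 3.12, 0.997 and 2.47 CPM with cadmium, 2.01, 4.10 and 3.47 CPM with polystyrene, 2.76, 1.67 and 3.15 CPM with both and 2.13, 1.96 and 1.77 CPM in controls, again with overlap. The serotonin transporter (Cluster-2499.35054) had 5.90, 2.23 and 3.95 CPM with cadmium, 6.39, 4.15 and 4.91 CPM with polystyrene, 4.53, 0.981 and 0.747 CPM with both and 1.87, 3.38 and 1.57 CPM in controls. Its polystyrene brains lay above the highest control, with a log2 fold change of 1.16 ± 0.58 that missed the threshold (edgeR adjusted p = 0.261). Without the filter edgeR called that rise (adjusted p = 0.0262). It was then also called lower with both than with polystyrene (edgeR adjusted p = 0.0155). Without combined replicate 4, edgeR called this transporter lower with both than with cadmium (adjusted p = 0.0333) or polystyrene (0.0156). The departure from additivity, described below, was called in either setting (edgeR adjusted p = 0.00135 and 0.00729). The dopamine transporter (Cluster-2499.60943) averaged 3.58 ± 0.920 CPM with cadmium, 4.85 ± 0.948 CPM with polystyrene, 4.05 ± 1.38 CPM with both and 4.97 ± 2.64 CPM in controls. The abundant DBH-like 2 homolog (Cluster-2499.100617) averaged 241 ± 26.1 CPM with cadmium, 200.1 ± 30.2 CPM with polystyrene, 183 ± 51.0 CPM with both and 215 ± 48.2 CPM in controls.

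**Figure D5:**
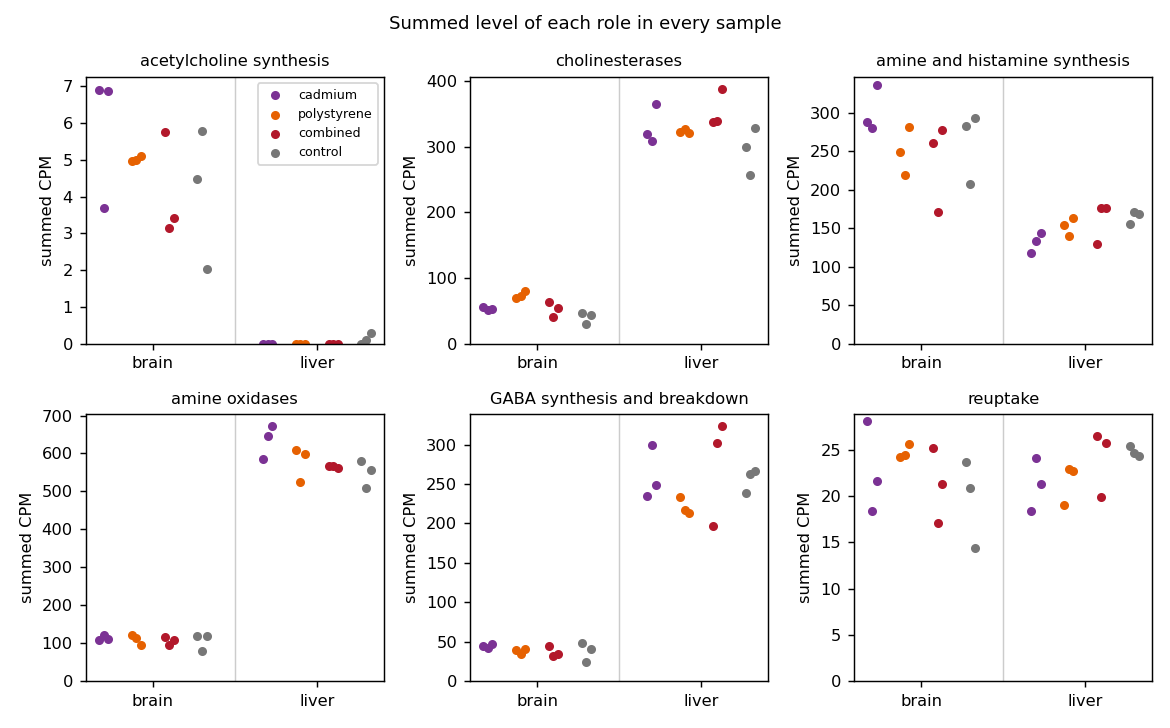
Each point is the summed CPM of all clusters of a role in 1 sample, for brain (left of each panel) and liver (right), coloured by exposure. Cholinesterase sums of the polystyrene brains, 69.2 to 80.4 CPM, lie above the control brains at 30.5 to 46.3 CPM, as do the reuptake sums of the same brains, while the other roles overlap between polystyrene and control brains.

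The combined exposure was also compared with each pollutant alone. Between the combined exposure and either pollutant alone, edgeR called 0 members in brain and in liver. In brain 2.79% of all clusters differed between combined exposure and cadmium and 3.51% between combined exposure and polystyrene; in liver 2.5% and 1.32% did. At an unadjusted p under 0.05 there were 1 and 4 members in brain and 7 and 4 in liver. The DESeq2 Wald test called 1 and 2 in brain and 1 and 1 in liver. No share of all clusters is set beside these counts. The acetylcholinesterase Cluster-2499.37114 came nearest among cholinesterases. It was lower in the combined-exposure brains than in the polystyrene brains without overlap (log2 fold change -1.47 ± 0.41, edgeR adjusted p = 0.0726, DESeq2 Wald adjusted p = 0.0123). DBH-like 1 Cluster-2499.82528 lay likewise (-2.74 ± 0.85, edgeR adjusted p = 0.0937, DESeq2 Wald adjusted p = 0.0279). The copper amine oxidase Cluster-2499.118224 had 8.23, 8.14 and 12.6 CPM in combined-exposure brains and 19.4, 15.1 and 22.6 CPM in cadmium brains, also without overlap (log2 fold change -0.99 ± 0.28, edgeR adjusted p = 0.0807, DESeq2 Wald adjusted p = 0.0321).

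The combined change was also set against the sum of the log2 changes of the single exposures. In liver, 1 of 35 members departed from that sum (1.78% of all clusters did). This was DBH-like 1 Cluster-2499.82977, which both single exposures lowered and the combined exposure lowered by less than their sum (departure 2.36 ± 0.46, edgeR adjusted p = 0.0202). The call was lost without control replicate 2, polystyrene replicate 3 or combined replicate 3 (adjusted p 0.0525 to 0.0612). In brain 0 of 36 departed in edgeR (5.97% of all clusters), with 5 at an unadjusted p under 0.05. The acetylcholinesterases Cluster-2499.37114 (departure -2.01 ± 0.58, edgeR adjusted p = 0.0610) and Cluster-2499.81644 (-1.02 ± 0.33, adjusted p = 0.0847) were called by the DESeq2 Wald test (adjusted p = 0.0123 and 0.0429). These departures use the same controls and single exposures as the comparisons above.

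The response to each exposure was compared between the tissues as the change in brain minus the change in liver. For cadmium 1 of 47 members differed (2.23% of all clusters), for polystyrene 3 of 47 (2.84%) and for both 0 of 47 (1.98%, with 9 at an unadjusted p under 0.05 and 0 by DESeq2). With polystyrene, acetylcholinesterase Cluster-2499.81644 changed by 1.27 ± 0.27 more in brain (edgeR adjusted p = 0.00986). In liver it stood at 34.2, 41.3 and 41.3 CPM with polystyrene and 43.5, 42.7 and 49.3 CPM in controls. DBH-like 1 Cluster-2499.82528 changed by 3.62 ± 0.58 more in brain (adjusted p = 0.00127), on liver levels of 53.3, 55.4 and 68.1 CPM with polystyrene and 65.2, 49.8 and 59.8 CPM in controls. The cholinesterase Cluster-2499.88532 differed the other way (-2.95 ± 0.64, adjusted p = 0.0161), on 2 counts in polystyrene brains and 14 in control brains, a 7.37-fold lower level with a 95% counting interval of 1.69 to 66.8. That call was lost without brain control replicate 6 (adjusted p = 0.0764) or brain polystyrene replicate 5 (0.108) and with the DESeq2 Wald test (0.0707).

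With cadmium, amine oxidase B Cluster-2499.88927 had 0.252, 0.352 and 0.135 CPM in cadmium brains and 0.260, 1.14 and 1.11 CPM in control brains, groups that overlapped. In liver it had 161, 221 and 189.8 CPM with cadmium and 166, 155 and 177 CPM in controls. The difference between the tissues was -1.98 ± 0.49 (edgeR adjusted p = 0.0304) and was lost in 6 of 24 omissions of a sample, those of brain cadmium 4 or 6, brain control 5 or 6, liver cadmium 2 and liver control 2 (adjusted p 0.0670 to 0.119).

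Among the related clusters outside the members, 0 of 48 tested were called in cadmium brains (4.34% of all clusters), 4 or 8.33% in polystyrene brains (3 higher, 1 lower, against 7.08% of all clusters) and 3 or 6.25% in combined-exposure brains (1 higher, 2 lower, against 3.92%). The share in polystyrene brains was near that of all clusters. Glycine transporter 2 Cluster-2499.49913 had 41.5, 29.9 and 35.6 CPM in polystyrene brains, 24.5, 28.8 and 30.8 CPM in combined-exposure brains and 17.1, 10.8 and 16.6 CPM in control brains. The polystyrene brains did not overlap the controls (log2 fold change 1.25 ± 0.26, edgeR adjusted p = 0.0112), a call kept in all 12 omissions of a sample. A second glycine transporter 2 (Cluster-2499.128742) rose too (log2 fold change 1.69 ± 0.42, edgeR adjusted p = 0.0288, lost without control 6 or any polystyrene brain, up to 0.0808), another (Cluster-2499.102356) fell (-0.96 ± 0.27, adjusted p = 0.0432, kept only without cadmium 5 or polystyrene 6, up to 0.170), and the taurine transporter Cluster-2499.118451 rose (1.30 ± 0.36, adjusted p = 0.0443, kept only without cadmium 5, polystyrene 5 or any combined-exposure brain, up to 0.147).

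With both pollutants the calls were glutamate transporters. Excitatory amino acid transporter 1 (Cluster-2499.113272), which clears glutamate, had 16.2, 30.1 and 43.7 CPM in combined-exposure brains and 73.3, 85.9 and 74.6 CPM in control brains (log2 fold change -1.40 ± 0.36, edgeR adjusted p = 0.0453, kept only without polystyrene 4 or 5 or combined 6, up to 0.153). Excitatory amino acid transporter 3 (Cluster-2499.52766) fell too (-1.91 ± 0.49, adjusted p = 0.0426, lost without cadmium 4, polystyrene 5, control 4 or 6 or any combined-exposure brain, up to 0.146), while vesicular glutamate transporter 1 (Cluster-2499.52772) had 9.45, 10.8 and 13.7 CPM in combined-exposure brains and 4.37, 6.98 and 5.47 CPM in control brains (0.98 ± 0.24, adjusted p = 0.0325, lost without combined 5 or 6 or control 4 or 6, up to 0.114). Muscle transcripts summed to 17730 to 32190 CPM in those combined-exposure brains and 6900 to 15469 CPM in control brains, with 1 of 9 tested clusters higher, and their part in these changes was not tested. In liver, of 39 related clusters tested, 2 fell and 0 rose with cadmium, 2 fell and 1 rose with polystyrene, and 1 fell and 1 rose with both. These are 5.13%, 7.69% and 5.13% of those tested, against 3.46%, 3.14% and 6.24% of all clusters. Besides tyramine beta-hydroxylase, the fall with cadmium was of phenylalanine-4-hydroxylase (Cluster-2499.78549), which makes tyrosine (log2 fold change -2.96 ± 0.76, edgeR adjusted p = 0.0470, kept only without cadmium 2, polystyrene 1 or combined 1, up to 0.151). With polystyrene excitatory amino acid transporter 1 (Cluster-2499.93850) fell (-0.66 ± 0.15, adjusted p = 0.0285, lost without control 2 or any polystyrene liver, up to 0.134) and a glutamine synthetase (Cluster-2499.88444) rose (0.51 ± 0.13, adjusted p = 0.0458, kept only without cadmium 1 or 3 or combined 1, up to 0.205). Another glutamine synthetase (Cluster-2499.87110) rose with both (0.50 ± 0.13, adjusted p = 0.0376, lost without 6 of the 12 samples, cadmium 1, polystyrene 2, combined 1 or 2 and control 2 or 3, up to 0.149).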

How the data were processed

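The deposited table holds expected counts per gene cluster for 24 samples (8 groups of 3), with cluster length, the best Swiss-Prot description and its score and E-value, per the file headers. The authors' table is named as raw counts, but 3.54% to 7.14% of the values in a sample are not whole, so they were taken as estimated counts and rounded. RNA came from an RNeasy kit and libraries from a SMARTER mRNA kit, per the labels' protocols. The assembler, aligner and counter are not given in the sources used here. For the genome, mm10 (mouse) is what the submitters' processing notes give, although the identifiers are clusters of snail transcripts, and no coordinates were used. The Swiss-Prot score deposited by the authors was not used beyond the name it belongs to, and strand use in counting is not given in the sources used here.

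Counts were tested with edgeR 4.0.16 (limma 3.58.1, R 4.3.3) by its robust quasi-likelihood test after TMM scaling and its filter on low counts (10 counts), in 1 fit of the 12 samples of each tissue, and of all 24 samples for comparisons across tissues. Adjustment was by Benjamini-Hochberg over all clusters tested, and the standard error was taken from the fold change and its F statistic. CPM used library totals scaled by TMM over all 24 samples. Ratios of groups with fewer than 10 counts have exact conditional 95% intervals, and a group without counts was set to a floor of 3. The alternatives were DESeq2 1.42.0, its size factors, no filter, a stricter filter (1 CPM), only the 6 samples compared, the replicate number as a block and each sample left out in turn. The scripts were tested on simulated data.

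Replicates were compared over clusters with 20 or more counts, and chi-square per degree of freedom was 5.38 to 55.8 over 24 pairs. No sample was therefore a copy of another's counts. Whether the samples came from different animals cannot be told in this way. The members and lists were chosen with earlier results of these data known. Clusters named are the called members (at most 12 a comparison, by adjusted p) and the member of each role with the highest mean CPM in each tissue, and any other cluster named was chosen after its values were seen. The related clusters numbered 74, of which 10 were left out as other proteins caught by the same words (such as transglutaminases). Sequences, promoters and genome positions were not analysed here.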

Additional observations from a re-analysis of the deposited data

Results flagged for a closer look

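In 4 members the response to an exposure differed between brain and liver by a test of the difference itself, in edgeR over all 24 samples. For cadmium this was 1 of 47 tested members or 2.13%, near the 2.23% of all clusters called. For polystyrene it was 3 of 47 or 6.38%, against 2.84% of all clusters. The response of amine oxidase B (Cluster-2499.88927) to cadmium was -1.98 on the log2 scale in brain relative to liver. The responses to polystyrene in brain relative to liver were 3.62 for DBH-like 1 (Cluster-2499.82528), 1.27 for acetylcholinesterase (Cluster-2499.81644) and -2.95 for cholinesterase (Cluster-2499.88532). The brain levels behind the first, second and last of these are under 2 CPM in every sample of the groups compared. The call of Cluster-2499.88927 was lost in 6 of 24 omissions of a sample. That of Cluster-2499.88532 was lost in 2 of 24 and with the DESeq2 Wald test.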

How the results depend on the processing

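All 12 calls of named members between the control tissues were kept in every omission of a sample. Among them Cluster-2499.88532, Cluster-2499.88985, Cluster-2499.88389, Cluster-2499.86729, Cluster-2499.60943 and Cluster-2499.34988 had reached the filter in samples of 1 tissue only, which favoured their difference. Of the 15 calls of named members with exposure, 4 were kept in every omission and 11 lost in at least 1, and no direction reversed. The 4 kept include Cluster-2499.53469 with both pollutants, which the control livers alone brought into the test. The 15 also include its calls with each single exposure and that of Cluster-2499.82528 in polystyrene brains, where the filter likewise favoured the direction. The number of members called in edgeR's test changed by more than 1.5 times as follows. With the DESeq2 Wald test there were 2 for the departure from additivity in brain, 1 and 2 for combined exposure against cadmium and against polystyrene in brain, 3 for the cadmium difference between tissues, and 1 each for combined exposure against cadmium and against polystyrene in liver. Without a filter there were 2, 1, 2 and 2 in the first 4 of these, 2 for the combined-exposure difference between tissues, 2 for the departure in liver, 5 each for cadmium, polystyrene and both against control in liver, and 3 and 1 for combined exposure against cadmium and against polystyrene in liver. With only the 6 samples compared there was 1 for combined exposure against cadmium in brain and 1 against polystyrene in liver. For polystyrene against control in liver there were then 4, of which 2 were higher and 2 lower. With the stricter filter there was 1 each for cadmium and polystyrene against control in liver, because Cluster-2499.53469 was no longer tested. Smaller changes were 3, 3 and 4 with DESeq2 for cadmium, polystyrene and both in liver, 4 without a filter and 2 with only the 6 samples in polystyrene brains, 4 without a filter for the polystyrene difference between tissues, 2 with the stricter filter for both pollutants in liver, where the same cluster dropped out, and 36 to 41 between the control tissues.

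Leaving out 1 sample at a time gave 38 to 43 calls between the control tissues, 0 to 3 in polystyrene brains, and 0 to 1 in cadmium brains, in combined-exposure brains, in combined exposure against either single exposure in both tissues and in the departures of both tissues. It gave 1 to 4 with cadmium, 0 to 3 with polystyrene and 1 to 3 with both in liver, and 0 to 3, 2 to 4 and 0 to 1 for the tissue differences with cadmium, polystyrene and both. Fewer samples enter these fits, and the cause of the other changes was not tested.

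Same-numbered samples of different groups correlated at -0.0976 to 0.109 in liver and -0.124 to 0.133 in brain (18 pairs each). The brain median was 0.0247 for the same number and -0.0222 for other numbers. By mean correlation, 4 of 12 liver and 6 of 12 brain samples were closest to their own number. No clear pairing by number was seen, which does not show that the samples are unpaired. With the replicate number as a block there was 1 call for the departure in brain and 1 for combined exposure against polystyrene in brain, both acetylcholinesterase Cluster-2499.37114, and the counts of the other within-tissue comparisons were unchanged. With 3 samples a group, a missed threshold does not show that levels were alike.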
